A study of Mus musculus with 23 samples.

Results

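The collagen genes described here are the rows of the deposited gene table whose symbol has the form Col, a type number, the letter a and a chain number, with a summed count of at least 50 over all libraries. Of 44 symbols of this form, 33 met the limit, out of 32793 rows in the table. They comprise 11 genes of fibrillar chains, 5 of basement membrane chains (Col4a1, Col4a2, Col4a5, Col4a6 and Col18a1) and 17 of other chains. The lowest summed count inside the limit was 55, of Col28a1, and the highest outside it was 41, of Col14a1. The other 10 symbols outside it were Col4a3, Col4a4, Col6a5, Col6a6, Col9a1, Col9a2, Col13a1, Col15a1, Col22a1 and Col25a1. A filter on low counts left 32 of the 33 for testing, and Col20a1, with at most 14 counts in a library, was not tested.

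Poly(A) RNA was sequenced from C2C12, an established line of mouse myoblasts that fuse into multinucleate myotubes once serum is withdrawn. The labels name a control (here WT) and a Runx1KO form of the line, where Runx1 encodes a RUNX-family transcription factor. Each was sampled in growth medium with 20% FBS (day 0) and in medium with 2% horse serum on days 1, 3 and 6, as the sample titles give them; the series text calls the last time 5 days. The 8 groups hold 3 libraries each, except WT on day 0 with 2, and all cells share the C2C12 background. The labels say neither how the knockout was made, nor whether it is 1 clone, nor whether replicates were separate cultures, so p-values measure the spread between these libraries, which may be technical.

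Collagens are extracellular proteins in which 3 chains wind into a triple helix. Fibrillar collagens (types I, II, III, V, XI, XXIV and XXVII) assemble into fibrils that carry tension. Type IV chains instead form the sheet-like network of the basement membrane that wraps each muscle fibre. Type VI collagen forms beaded filaments between that membrane and the interstitial matrix, and loss of its chains causes muscle disease. Myoblasts themselves make several of these proteins.

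The labels do not say how the knockout was made, so Runx1 mRNA, read first, cannot check them. Its level in CPM (counts scaled to the effective library total) was 84.0 and 83.9 in the WT libraries of day 0 and 118, 119 and 122 in the KO-labelled libraries, and on day 6 it was 146, 148 and 165 against 297, 319.7 and 315. The mRNA was not lower in the KO-labelled libraries on any day (log2 fold change, log2FC, 0.51, 0.35, 0.54 and 1.02 on days 0, 1, 3 and 6), and genotypes are given below as labelled. Library totals ran from 22197606 to 23684077 estimated counts. Replicate 2 of the day 1 KO-labelled group stood apart from its replicates over all genes (median absolute gap 0.32 on the log2 scale, against at most 0.19 in any other library). Replicate 3 of the KO-labelled day 3 group had the widest gap over the collagen genes (0.33), but a gap of 0.12 over all genes.

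Marker lists were summed as TPM (a transcript level corrected for length and depth), and several of them moved with genotype. The 6 myotube genes summed to 2.26 to 2.36 TPM in WT on day 0 against 3.35 to 3.5 in the KO-labelled libraries, 52.6 to 95.1 against 160.4 to 209 on day 1, 2356 to 2548 against 3754 to 6799 on day 3 and 1889 to 2333 against 11180 to 13090 on day 6. The 5 myoblast genes, all over 1 TPM in every group, summed to 1025 to 1037 TPM in WT on day 0 against 1380 to 1435, 1314 to 1373 against 1238 to 1528 on day 1, 1316 to 1406 against 1706 to 1864 on day 3 and 1164 to 1389 against 1842 to 1974 on day 6. The sums of both lists were higher in the KO-labelled libraries without overlap on days 0, 3 and 6, and on day 1 only the myoblast sum overlapped. Des supplied most of the myoblast sum on day 6 (863 to 992 TPM in WT, 1436 to 1589 under the KO label), while Pax7 (14.1 to 20.9 against 7.82 to 12.3) and Myf5 (26.0 to 36.9 against 20.6 to 23.6) went the other way. Of 4 smooth muscle genes, 3 were over 1 TPM in each group and Myh11, the defining myosin, in none. Their sum overlapped on day 0 (319 to 351 TPM in WT, 325 to 579 in the KO-labelled libraries) and was lower under the KO label on day 1 (526 to 603 against 401 to 484), day 3 (2268 to 2558 against 1172 to 1617) and day 6 (1838 to 2095 against 1310 to 1379).

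Of 7 fibroblast markers 1 to 4 were over 1 TPM in a group, and Thy1, Lum and Tcf21 in none. The fibroblast sum overlapped on day 0 (3.91 to 4.35 TPM in WT, 2.06 to 3.92 under the KO label) and on day 6 (36.4 to 44.6 and 44.4 to 68.4). It was lower in the KO-labelled libraries on day 1 (18.6 to 20.3 TPM against 35.0 to 36.9) and higher on day 3 (51.6 to 52.2 against 33.1 to 37.0). Dcn supplied most of the sum on day 6, at 27.3 to 34.1 TPM in WT and 37.8 to 60.6 under the KO label, while Dpt went the other way, at 1.93 to 4.34 against 0.33 to 0.88. The 4 macrophage genes summed to 5.14 to 9.14 TPM in WT on day 6 against 15.5 to 17.2, and to at most 3.48 TPM on the other days, with Ptprc and Adgre1 under 1 TPM in every group. The day 6 difference was carried by Cd68 (4.13 to 7.73 TPM against 15.2 to 17.0), as Csf1r went the other way (0.95 to 1.41 against 0.2 to 0.28). Of 6 chondrocyte markers 1 was over 1 TPM in each group (33.5 to 78.1 TPM in sum), and of 6 osteoblast and 5 adipocyte markers at most 1 (up to 8.66 and 1.88 TPM). The 4 endothelial markers summed to at most 0.65 TPM. The part of these marker differences in the results below was not tested. In bulk RNA, fewer cells making a collagen and less RNA per cell cannot be told apart.

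Collagen transcripts took up a growing share of the transcriptome over the days of WT in differentiation medium, and a smaller share in the KO-labelled libraries. In WT the 33 genes made up 0.119% ± 0.0126 of all TPM on day 0 (SD, n = 2), 0.335% ± 0.0176 on day 1, 0.625% ± 0.0241 on day 3 and 0.682% ± 0.0826 on day 6 (SD, n = 3 each). In the KO-labelled libraries the shares were 0.0985% ± 0.0047, 0.224% ± 0.00764, 0.255% ± 0.026 and 0.303% ± 0.0215 (SD, n = 3 each). The genotypes did not overlap on any day, with WT from 0.604% to 0.651% and the KO-labelled libraries from 0.226% to 0.277% on day 3, and 0.597% to 0.762% against 0.284% to 0.326% on day 6. Without Col1a1, Col1a2 and Col3a1 the order on day 0 turned, to 0.0597% in WT and 0.0698% in the KO-labelled libraries, while on day 6 it stayed at 0.224% against 0.141%.

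**Figure D1:**
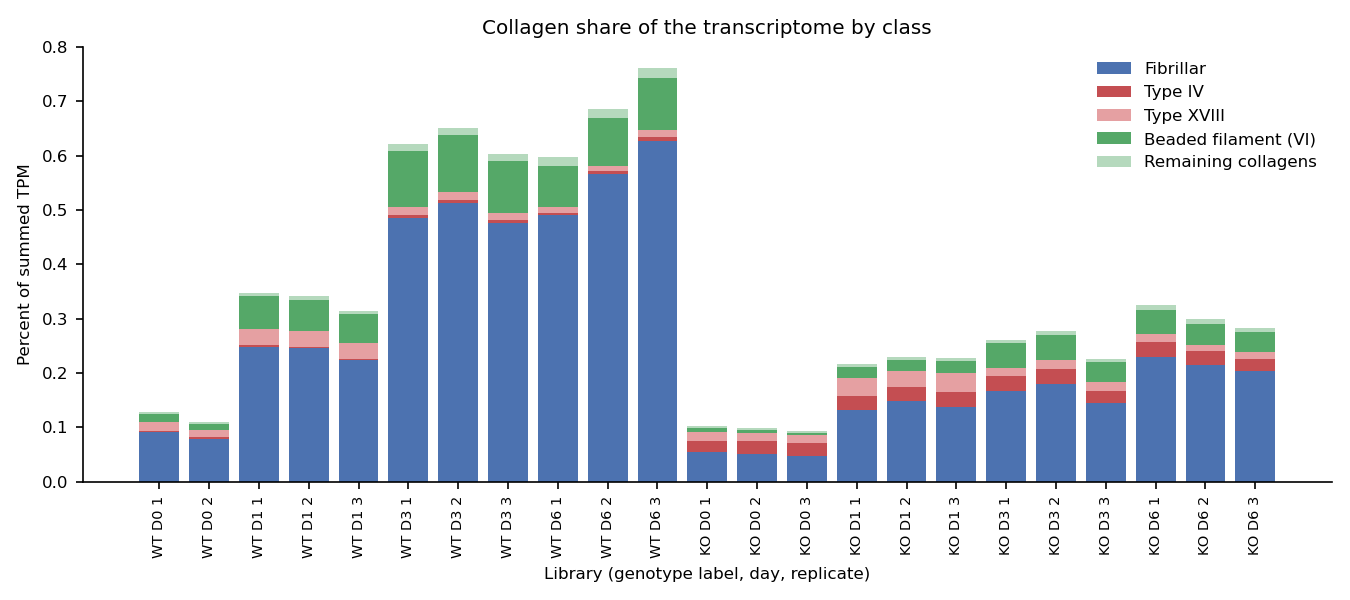
Share of each library's summed TPM (vertical axis, percent) held by the collagen genes, with 1 bar per library and colours for the classes. WT bars of days 3 and 6 stand between 0.597% and 0.762%, and the type IV block is visible mainly in the KO-labelled libraries.

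The make-up of the collagen pool also differed. Fibrillar chains supplied 71.3% ± 0.354 of collagen TPM in WT on day 0 (SD, n = 2) and 82.4% ± 0.191 on day 6 (SD, n = 3), against 51.4% ± 1.45 and 71.4% ± 0.753 in the KO-labelled libraries (SD, n = 3 each). Type IV chains supplied 2.42% ± 0.213 of it in WT on day 0 and 0.748% ± 0.024 on day 6, against 23.4% ± 2.34 and 8.18% ± 0.11 in the KO-labelled libraries. The share of Col1a1 alone went from 8.95% ± 0.00368 to 28.2% ± 2.21 in WT and from 0.465% ± 0.0352 to 8.37% ± 0.292 in the KO-labelled libraries. On day 0 the fibrillar share was 71.0% and 71.5% in the WT libraries and 52.5%, 52.0% and 49.7% in the KO-labelled libraries, and the type IV part was larger in each KO-labelled library than in either WT library.

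Between genotypes, a member was called where edgeR's quasi-likelihood test gave a Benjamini-Hochberg adjusted p under 0.05 over 14187 genes. On day 0, 7 of the 32 tested members were higher in the KO-labelled libraries and 10 lower, against 7.36% and 10.1% of all tested genes. On day 1, 7 were higher and 12 lower (22.9% and 19.2% of all genes). Day 3 gave 10 higher and 14 lower (24% and 19.2% of all genes), a split that became 6 and 14 in limma on log2(TPM + 0.1). Day 6 gave 12 higher and 12 lower (22% and 20.8% of all genes). Without the libraries that stood apart, 19 members were called on day 1, 8 of them higher, and 22 on day 3, also with 8 higher. A change called in the same direction on all 4 days was found for 4 members that were higher, Col4a1, Col4a2, Col7a1 and Col27a1, and for 9 that were lower, Col1a1, Col3a1, Col5a1, Col11a1, Col6a1, Col6a2, Col6a3, Col8a2 and Col12a1, where 3.31% and 5.54% of all genes were. Col2a1, Col11a2, Col24a1 and Col26a1 were called on no day.

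The classes split unequally by direction. Of the 5 basement membrane genes none was called lower, while 2, 3, 5 and 5 were called higher on days 0, 1, 3 and 6, with median log2FC of 0.26, 0.63, 1.24 and 1.65. Of the 11 fibrillar genes, 2 were higher and 5 lower on day 0, then 1 and 5 on day 1, 1 and 7 on day 3, and 1 and 5 on day 6, with medians of -0.33, -0.16, -0.97 and -0.21. The day 6 fibrillar median was -0.51 when Col2a1, at or under 3 counts in both genotypes, was left out and Col11a1 was set at its bound. Of the 16 other genes tested, 3 were higher and 5 lower on day 0, 3 and 7 on day 1, 4 and 7 on day 3, and 6 and 7 on day 6. Their fitted medians were 0.00, -0.75, 0.31 and 0.38, and -0.23, -0.81, 0.20 and 0.38 with genes set at their bounds and those at or under 3 counts in both genotypes left out. Over all genes tested the medians were 0.00, 0.03, 0.04 and 0.00. Of all genes, 7.36% were called higher and 10.1% lower on day 0, and 22.9% and 19.2% on day 1. The shares were 24% and 19.2% on day 3, and 22% and 20.8% on day 6. Some of these small counts rested on 1 library or setting. The 2 fibrillar genes higher on day 0 became 1 without either WT library, without KO-labelled replicate 2, on both TPM scales and with only the groups compared, and the 5 lower became 3 on log2(TPM + 1). On day 1 the 1 fibrillar gene higher became 2 without KO-labelled replicate 2, and the 3 other genes higher became 1 without WT replicate 3 and on both TPM scales. The 4 other genes higher on day 3 became 2 on both TPM scales and under a mean count filter of 50, and 3 without 5 of the 6 single libraries, and the 5 basement membrane genes became 3 on log2(TPM + 0.1). On day 6 the 1 fibrillar gene higher became 2 in DESeq2, on log2(TPM + 1) and with only the groups compared, and the 6 other genes higher became 1 with a mean count of at least 50, which tests fewer of them.

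**Figure D2:**
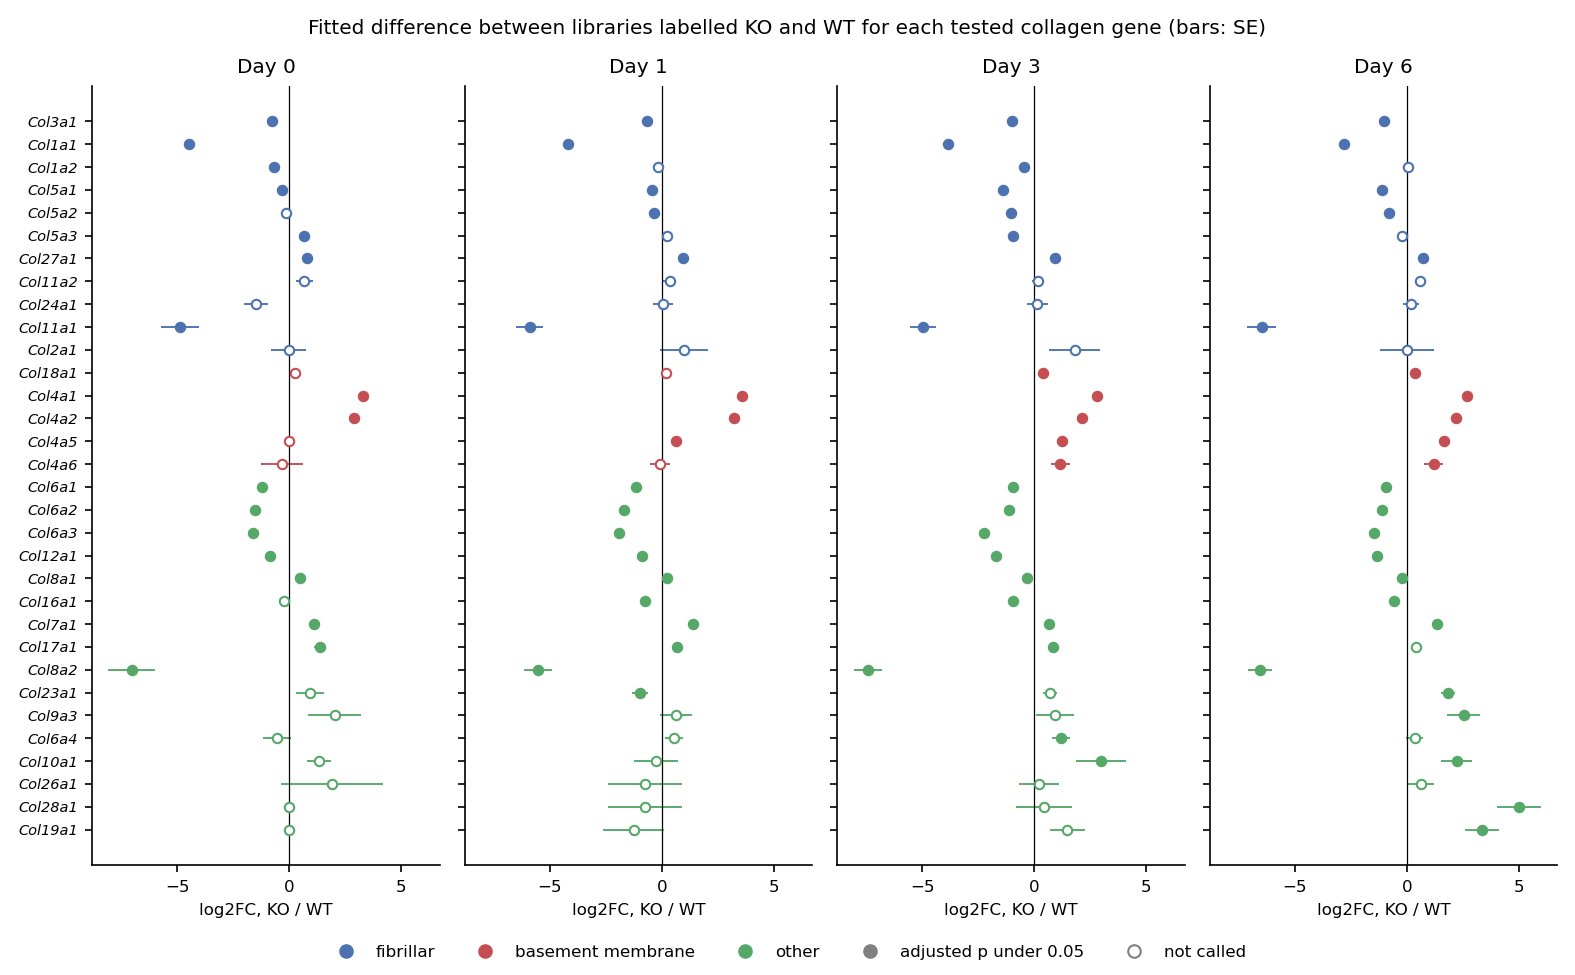
Fitted log2FC of the KO-labelled libraries over WT (horizontal axes) for each of the 32 tested collagen genes on 4 days, with bars for the SE, filled points for calls at an adjusted p under 0.05 and colours for the classes. Col4a1 and Col4a2 lie right of 0 on all days and Col1a1 left of -2.5. The points of Col8a2 and Col11a1, whose KO-labelled libraries hold 0 to 2 counts, and of Col10a1, Col19a1, Col26a1 and Col28a1 depend on the prior count of the fit.

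Upstream sequence was available as RefSeq promoter windows of GRCm38.p6, the assembly behind mm10, for 27 of the 33 genes (29 windows). The 4 windows shown are free of annotated exons and belong to genes with different patterns: Col3a1 and Col6a2 were lower on all 4 days, Col7a1 was higher on all 4, and Col8a1 went from higher to lower. Each holds the 250 bases before the start, 5′ to 3′ on the gene's strand, from chr1:45311288-45311537 (plus strand), chr10:76623631-76623880 (minus), chr9:108953336-108953585 (plus) and chr16:57754738-57754987 (minus). Capitals mark a match to TATAAA (Col3a1), to CCAAT on the reverse strand (Col7a1) and to TGTGGT, the core site of RUNX proteins (Col8a1), and the window of Col6a2 holds none of the motifs searched.
Col3a1: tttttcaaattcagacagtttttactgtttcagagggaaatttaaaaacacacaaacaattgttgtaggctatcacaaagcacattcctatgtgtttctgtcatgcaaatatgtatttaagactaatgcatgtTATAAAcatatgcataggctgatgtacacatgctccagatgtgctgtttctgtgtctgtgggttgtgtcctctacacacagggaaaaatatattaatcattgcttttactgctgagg
Col6a2: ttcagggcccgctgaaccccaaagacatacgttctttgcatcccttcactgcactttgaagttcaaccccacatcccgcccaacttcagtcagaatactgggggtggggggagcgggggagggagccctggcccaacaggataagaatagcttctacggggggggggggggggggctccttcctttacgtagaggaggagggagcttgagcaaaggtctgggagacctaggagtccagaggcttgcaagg
Col7a1: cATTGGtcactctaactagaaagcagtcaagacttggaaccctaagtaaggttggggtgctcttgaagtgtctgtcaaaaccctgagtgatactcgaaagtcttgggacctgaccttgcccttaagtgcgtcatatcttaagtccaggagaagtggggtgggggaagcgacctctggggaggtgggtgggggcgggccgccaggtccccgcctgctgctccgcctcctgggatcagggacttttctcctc
Col8a1: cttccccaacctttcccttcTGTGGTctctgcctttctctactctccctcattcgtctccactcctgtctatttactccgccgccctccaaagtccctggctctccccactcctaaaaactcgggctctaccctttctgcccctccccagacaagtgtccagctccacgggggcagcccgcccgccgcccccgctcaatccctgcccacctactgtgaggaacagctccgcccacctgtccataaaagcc

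The motifs were searched on both strands as exact letters. TGTGGT or TGCGGT was present in the windows of 5 members, Col4a2, Col8a1, Col17a1, Col18a1 and Col19a1, and in 18.6% of all 32851 windows. The E-box CAGCTG, read by myogenic helix-loop-helix factors, was present for 4 members and in 13% of all windows, and the ETS-type core CCGGAA for 0 members and in 12%. CCAAT was present for 11 members and in 33.8% of all windows, and TATAAA for 4 members and in 12.4%. None of these motifs overlaps another in the windows shown. A match describes letters only.

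Type I collagen, the main fibril of connective tissue, pairs α1 chains with an α2 chain. Its α1 gene Col1a1 (chr11:94936224-94953042, plus strand) showed the widest gap between genotypes among the well-expressed members. In WT it stood at 115 and 98.9 TPM on day 0, 464, 479 and 411 on day 1, 1616, 1749 and 1508 on day 3, and 1606, 2105 and 2047 on day 6. The KO-labelled libraries held 4.86, 4.91 and 3.98 TPM on day 0, 25.7, 17.9 and 27.5 on day 1, 109, 135 and 64.5 on day 3, and 262, 257 and 240.3 on day 6. Every KO-labelled library was below every WT library of its day, and the highest of them on day 6 remained below the lowest WT library of day 1. The fitted difference was 22.4-fold on day 0 (log2FC -4.48, adjusted p = 3.16e-13, SE 0.22), 18.4-fold on day 1 (-4.20, adjusted p = 1.52e-13, SE 0.20), 14.3-fold on day 3 (-3.84, adjusted p = 4.19e-13, SE 0.20) and 6.97-fold on day 6 (-2.80, adjusted p = 2.29e-11, SE 0.19), each by edgeR. Without replicate 3 of the KO-labelled day 3 group, chosen by its gap over the collagen genes, the day 3 value was -3.60. Without the day 1 library that stood apart the day 1 value was -3.99.

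The α2 gene Col1a2 (chr6:4505618-4541543, plus strand) differed far less. WT held 226 and 206 TPM on day 0, 351, 353 and 336 on day 1, 406, 458 and 418 on day 3, and 277, 311 and 366 on day 6. The KO-labelled libraries held 139, 130.2 and 119.9 TPM, then 294, 307 and 304, then 290.3, 299.9 and 242, then 325, 304 and 283. They lay below WT on days 0, 1 and 3 and overlapped WT on day 6. Col1a2 was lower on day 0 (log2FC -0.68, adjusted p = 2.63e-06, SE 0.085) and day 3 (-0.47, adjusted p = 2.38e-05, SE 0.076), while the values of day 1 (-0.16, adjusted p = 0.0895, but from 0.0281 to 0.0349 under 3 alternatives) and day 6 (0.07, adjusted p = 0.522) did not pass edgeR's test.

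Type III collagen is a trimer of a single chain, encoded by Col3a1 (chr1:45311538-45349706, plus strand), the collagen gene with the highest mean TPM here. In WT its level was 301 and 247 TPM on day 0, 1159, 1141 and 1053 on day 1, 1911, 1970.0 and 1957 on day 3, and 2109.6, 2259.7 and 2654 on day 6. In the KO-labelled libraries it was 176, 157 and 123 TPM, then 629, 756 and 658, then 864, 975 and 826, then 1132, 1051 and 997. The genotypes were apart on each day, by a similar factor. Col3a1 was lower by edgeR on day 0 (log2FC -0.79, adjusted p = 4.02e-06, SE 0.10), day 1 (-0.68, adjusted p = 3.64e-06), day 3 (-0.98, adjusted p = 1.13e-08) and day 6 (-1.01, adjusted p = 5.19e-09, SE 0.093).

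**Figure D3:**
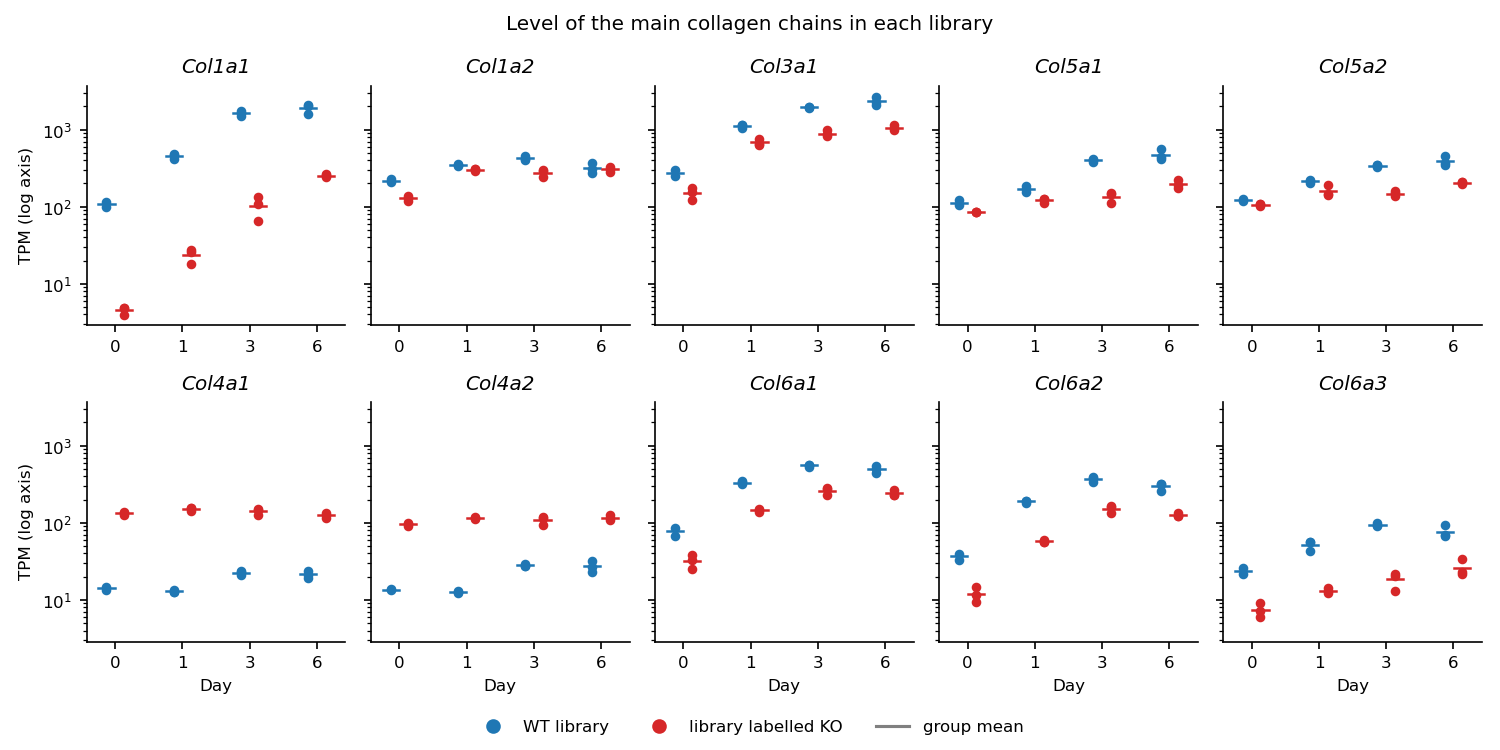
TPM (vertical axes, log scale) of 10 main collagen chains in each library by day, with points for libraries and short lines for group means. For Col1a1 the KO-labelled points lie between 3.98 and 262 TPM and the WT points between 98.9 and 2105, whereas for Col4a1 the KO-labelled points lie between 115 and 153 TPM and the WT points between 12.5 and 24.

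Type V chains set the diameter of type I fibrils. Col5a1 held 120.4 and 104 TPM in WT on day 0, 186, 172 and 153 on day 1, 397, 412 and 384 on day 3 and 417, 445 and 554 on day 6. The KO-labelled libraries held 85.8, 86.1 and 84.5 TPM, then 124, 112 and 126, then 146, 149 and 111, then 224, 193 and 176. Its difference was small on days 0 and 1 and wider on days 3 and 6. The log2FC was -0.33 on day 0 (adjusted p = 0.0332, SE 0.11), -0.45 on day 1, -1.41 on day 3 (adjusted p = 5.66e-11, SE 0.097) and -1.12 on day 6 (adjusted p = 1.45e-09, SE 0.096) by edgeR. The day 0 call did not hold with the replicate number as a block (adjusted p = 0.0607), nor when any 1 library of the 5 was left out (adjusted p from 0.0597 to 0.302).

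Col5a2 behaved much like its partner chain. WT libraries held 126 and 117 TPM on day 0, 221, 213 and 203 on day 1, 343, 352 and 328 on day 3 and 347, 369.7 and 452 on day 6. KO-labelled libraries had 102, 108 and 107 TPM, then 140.4, 193 and 148, then 159, 148 and 137, then 211, 208 and 197. All of the latter lay below WT, with a log2FC of -0.14 on day 0 (adjusted p = 0.332, not called), -0.37 on day 1 (adjusted p = 0.000692), -1.05 on day 3 (adjusted p = 3.73e-10) and -0.80 on day 6 (adjusted p = 2.24e-08) by edgeR. The third type V gene, Col5a3, changed sides. It held 20.9 and 16.6 TPM in WT against 30.4, 28.5 and 25.4 on day 0, and 180.2, 191 and 164 TPM against 93.1, 87.4 and 67.2 on day 3. Col5a3 was higher in the KO-labelled libraries on day 0 (log2FC 0.64, adjusted p = 0.000606, SE 0.12) and lower on day 3 (-0.97, adjusted p = 1.45e-07, SE 0.11). It passed on neither day 1 (0.21, adjusted p = 0.117) nor day 6 (-0.21, adjusted p = 0.111); without the day 1 library that stood apart the day 1 value was 0.33 (adjusted p = 0.0156). On day 6 its TPM did not overlap, at 148, 167 and 201 in WT against 142, 135 and 129, and the test passed with library size only (adjusted p = 0.0321), on both TPM scales (0.0331 and 0.0355) and without WT replicate 1 (0.0428).

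The remaining fibrillar genes were far less abundant. Col27a1, which encodes a chain of thin non-striated fibrils, held 0.27 and 0.35 TPM in WT against 0.53, 0.58 and 0.32 on day 0, where the groups overlapped, and 3.14, 3.38 and 3.05 against 4.37, 5.67 and 4.81 on day 6. It was the only fibrillar gene called higher on all 4 days by edgeR (log2FC 0.81, 0.93, 0.90 and 0.73, adjusted p = 0.0185, 0.000201, 2.17e-05 and 0.000132). Its day 0 call was lost when either WT library or KO-labelled replicate 2 was left out (adjusted p from 0.0503 to 0.212), with only the groups compared (0.0641) and in limma on log2(TPM + 1) (log2FC 0.17, adjusted p = 0.435) and log2(TPM + 0.1) (0.47, adjusted p = 0.194). Col11a1, a chain of the fibrils that nucleate in cartilage, had 10 to 58 counts in each WT library and 0 to 2 in each KO-labelled library. Set against a floor of 3 counts per library, the drop was at least 4.38-fold on day 0, 15.7-fold on day 1, 11.8-fold on day 3 and 13.7-fold on day 6 (edgeR adjusted p = 0.000164, 4.62e-08, 2.44e-07 and 3.06e-08). Its day 0 call was not made in limma on log2(TPM + 1) (adjusted p = 0.159). Col11a2 (8 to 104 counts per library), Col24a1 (3 to 45) and Col2a1 (0 to 13) passed on no day, with the smallest adjusted p at 0.0521 for Col11a2 on day 6 and 0.0576 for Col24a1 on day 0.

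Among basement membrane genes, the ubiquitous type IV pair was far higher in the KO-labelled libraries. Col4a1 and Col4a2 encode the α1 and α2 chains of the common type IV network and lie head to head on chromosome 8 (chr8:11198423-11312889, minus strand, and chr8:11312805-11449287, plus strand), their RefSeq spans overlapping by 85 bases. Col4a1 held 14.6 and 13.5 TPM in WT on day 0, 13.4, 12.5 and 12.8 on day 1, 23.5, 22.8 and 21.3 on day 3 and 19, 21 and 24 on day 6. The KO-labelled libraries held 124, 134 and 139 TPM, then 144, 153 and 153, then 149, 148 and 125, then 136, 125 and 115. No library came near the other genotype. By edgeR the gene was 9.86-fold higher on day 0 (log2FC 3.30, adjusted p = 4.15e-17, SE 0.095), 11.9-fold on day 1 (3.58, adjusted p = 2.14e-19), 6.92-fold on day 3 (2.79, adjusted p = 1.58e-17) and 6.40-fold on day 6 (2.68, adjusted p = 1.85e-17, SE 0.078).

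Col4a2 held 13.2 and 13.8 TPM in WT on day 0, 13.2, 12.4 and 12.6 on day 1, 28.8, 27.5 and 27.5 on day 3 and 23.2, 26.9 and 32.3 on day 6. In the KO-labelled libraries it held 90.8, 95.3 and 101 TPM, then 114, 112 and 119, then 120.4, 116 and 94.5, then 127, 115 and 108. It was apart on each day as well, by 7.36-fold on day 0 (log2FC 2.88, adjusted p = 2.72e-15, SE 0.11), 9.30-fold on day 1 (3.22, adjusted p = 1.4e-17), 4.37-fold on day 3 (2.13, adjusted p = 9.59e-15) and 4.65-fold on day 6 (2.22, adjusted p = 2.5e-15, SE 0.089). Because the neighbours overlap and the counting is not stated to use strand, reads from the shared bases cannot be assigned to either gene with certainty.

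The other type IV pair found here, Col4a5 and Col4a6 of the α5 and α6 chains, also lies head to head, 1274 bases apart on chromosome X, at much lower levels. Col4a5 held 1.16 and 1.05 TPM in WT against 1.41, 1.12 and 0.64 on day 0, and 1.77, 1.97 and 2.61 against 6.01, 6.24 and 5.22 on day 6. The groups overlapped on day 0 and were apart on day 6. Its log2FC was 0.00 on day 0 (adjusted p = 1), where the sign changed with the scaling, then 0.63 (adjusted p = 0.00179), 1.24 (adjusted p = 5.57e-07) and 1.65 (adjusted p = 6.48e-09, SE 0.15) on days 1, 3 and 6 by edgeR. Col4a6, at 1 to 44 counts, was called higher on day 3 (log2FC 1.17, adjusted p = 0.0299) and day 6 (1.2, adjusted p = 0.03), and both calls ended when some single libraries were left out (adjusted p up to 0.146 on day 3 and 0.159 on day 6). Col18a1, whose C-terminal fragment is endostatin, was the most abundant basement membrane collagen in WT. Its WT libraries held 149 and 127 TPM on day 0, 307, 283 and 284 on day 1, 139, 139 and 131 on day 3 and 96, 105 and 131 on day 6. Those labelled KO held 167, 156 and 152 TPM, then 316, 281 and 353, then 158, 163 and 157, then 145, 123 and 125. The genotypes overlapped on days 1 and 6. Col18a1 passed edgeR's test on day 3 (log2FC 0.38, adjusted p = 0.001) and day 6 (0.38, adjusted p = 0.000873), and not on day 0 (0.26, adjusted p = 0.0624, but from 0.011 to 0.048 under 4 alternatives, RLE scaling and DESeq2 among them) or day 1 (0.17, adjusted p = 0.122). On the TPM scale the day 3 call was not made (0.22, adjusted p = 0.076), and without the day 1 library that stood apart the day 1 value was 0.30 (adjusted p = 0.00186).

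Of the beaded filament genes, the 3 abundant type VI chains were lower in the KO-labelled libraries on each day. Col6a1 held 86.4 and 68.1 TPM in WT on day 0, 346, 334 and 314 on day 1, 567, 568 and 533 on day 3 and 443, 496 and 538 on day 6. Under the KO label the levels were 37.9, 33.2 and 24.8 TPM, then 138, 147 and 149, then 270.1, 280.2 and 226, then 269, 226 and 226. These groups did not overlap, and the fitted log2FC by edgeR was -1.21 (SE 0.12), -1.16, -0.95 and -0.91 (SE 0.11), with adjusted p = 6.3e-08, 1.2e-08, 1.47e-07 and 2.39e-07. Col6a2, on the same chromosome 85161 bases from Col6a1 with no protein-coding gene between them, held 39.9 and 33.2 TPM in WT on day 0, 192, 192 and 183 on day 1, 375, 388 and 341 on day 3 and 258, 321 and 321 on day 6. In the KO-labelled libraries it held 14.6, 11.6 and 9.51 TPM, then 56, 55.8 and 59.9, then 158, 165 and 135, then 133, 124 and 124. Its log2FC was -1.55, -1.69, -1.12 and -1.11 (SE 0.11 to 0.12, adjusted p = 2.08e-09, 3.08e-11, 1.44e-08 and 1.27e-08).

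Col6a3, which encodes the long α3 chain of the type VI monomer, showed the largest drop of the 3. WT libraries held 26.1 and 21.8 TPM on day 0, 56.6, 55.5 and 43.2 on day 1, 91.4, 99.6 and 92.2 on day 3 and 67.2, 69.1 and 93.8 on day 6. The KO-labelled libraries held 9.2, 7.21 and 5.97 TPM, then 12.2, 14.4 and 13.1, then 20.7, 21.5 and 12.9, then 33.5, 22.9 and 21.4. The highest KO-labelled library on day 6 was below every WT library of days 1, 3 and 6. By edgeR the log2FC was -1.62 (adjusted p = 4.58e-07, SE 0.18), -1.93 (adjusted p = 3.69e-09), -2.23 (adjusted p = 2.56e-10) and -1.45 (adjusted p = 1.29e-07, SE 0.16) on days 0, 1, 3 and 6. Col6a4, at 2 to 34 counts, did not follow: it was called higher on day 3 (log2FC 1.19, adjusted p = 0.0201), a call lost when any of 3 single libraries was left out (adjusted p up to 0.11).

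Fibril-associated collagens, which coat the surface of fibrils, were mixed. Col12a1, which decorates type I fibrils, held 13.6 and 11.4 TPM in WT against 7.14, 6.85 and 5.69 on day 0, and 66.1, 64.1 and 97.8 against 36.9, 24.9 and 21.9 on day 6. It was lower on each day without overlap (log2FC -0.87, -0.88, -1.71 and -1.31, edgeR adjusted p = 0.00178, 0.000189, 2.2e-08 and 7.66e-07). Col16a1 overlapped on day 0, at 11.4 and 9.21 TPM in WT against 11.1, 7.72 and 7.84 (log2FC -0.23, adjusted p = 0.188). On day 6 it was apart, at 37.6, 39.6 and 34.8 TPM against 22, 23.9 and 19.4. It was lower on day 1 (-0.75, adjusted p = 1.11e-06), day 3 (-0.95, adjusted p = 2.12e-08) and day 6 (-0.57, adjusted p = 1.99e-05). Col9a3 and Col19a1 were scarce, with at most 18 and 13 counts in a library. Both were called higher on day 6 (adjusted p = 0.00668 and 0.00112), and Col19a1, at 1, 0 and 2 counts in WT and 10, 11 and 13 in the KO-labelled libraries, was at least 3.82-fold higher against the floor, a call not made in limma on log2(TPM + 1) (adjusted p = 0.12). Col20a1 had 6, 4 and 1 counts in WT on day 6 and 14, 7 and 9 in the KO-labelled libraries.

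The short-chain network genes Col8a1 and Col8a2, which encode the chains of type VIII collagen, differed from each other. Col8a1 held 14.2 and 13.6 TPM in WT against 20.1, 17.7 and 18.4 on day 0, and 44, 42.2 and 60.3 against 43.9, 36.9 and 33.8 on day 6. It was higher in the KO-labelled libraries on day 0 (log2FC 0.49, adjusted p = 0.00163, but 0.0539 in limma on log2(TPM + 1)) and lower on day 3 (-0.31, adjusted p = 0.00672). Its calls of day 1 (0.25, adjusted p = 0.0309) and day 6 (-0.22, adjusted p = 0.0488) were lost under RLE scaling (adjusted p = 0.0526 and 0.0567), among other settings, and when single libraries were left out (adjusted p up to 0.186 and 0.375). Col8a2 was close to absent from the KO-labelled libraries, with 0, 0 and 0 counts on day 0, 0, 1 and 1 on day 1, 0, 1 and 0 on day 3 and 2, 1 and 0 on day 6. The WT libraries held 22 and 10 counts, then 49, 38 and 27, then 112, 63 and 69, then 110.0, 107 and 103. Against a floor of 3 counts per library this is at least 5.17-fold lower on day 0, 12.3-fold on day 1, 26.2-fold on day 3 and 35.2-fold on day 6 (edgeR adjusted p = 4.5e-05, 4.01e-07, 4.03e-09 and 1.37e-09). The day 0 bound was 3.35-fold without WT replicate 1, and the day 0 call was not made in limma on log2(TPM + 1) (adjusted p = 0.0546). Col10a1, the hypertrophic cartilage collagen of the same class, had 0 to 31 counts. It was called higher on day 3 (adjusted p = 0.0358, and up to 0.178 when single libraries were left out) and day 6 (log2FC 2.22, adjusted p = 0.0106). The day 3 call was also lost with only the groups compared (adjusted p = 0.0607) and in limma on log2(TPM + 1) and log2(TPM + 0.1) (0.359 and 0.102). Its day 3 bound against the floor was 1.15-fold, or 0.69-fold without KO-labelled replicate 2.

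The anchoring fibril and transmembrane genes leaned the other way. Col7a1, of the fibrils that anchor skin epithelium, held 1.6 and 1.42 TPM in WT against 2.8, 2.92 and 3.49 on day 0, and 0.52, 0.64 and 0.78 against 1.57, 1.59 and 1.27 on day 6. Every KO-labelled library was above every WT library on these days, and edgeR gave a log2FC of 1.08, 1.39, 0.66 and 1.33 (adjusted p = 4.24e-06, 5.31e-09, 0.000544 and 4.66e-08). Col17a1, a hemidesmosome component in skin, held 0.37 and 0.45 TPM in WT against 1.1, 1.11 and 0.88 on day 0, and overlapped on day 6. It was higher on days 0 and 3 (log2FC 1.37 and 0.86, adjusted p = 0.000386 and 0.00134) and on day 1 (0.66, adjusted p = 0.0128, but 0.0581 and 0.0504 without KO-labelled replicate 3 or replicate 3 of WT). On day 6 it did not pass (0.41, adjusted p = 0.089, but 0.0236 without WT replicate 3). Col23a1 had 3 to 64 counts: it was called lower on day 1 (-0.97, adjusted p = 0.0395) and higher on day 6 (1.83, adjusted p = 4.14e-05), the former call being lost in DESeq2 (adjusted p = 0.0563) and when single libraries were left out (adjusted p up to 0.146). Col26a1, at 0 to 18 counts, was not called. Col28a1 had 1, 0 and 0 counts in WT and 5, 23 and 16 in the KO-labelled libraries on day 6, at least 4.92-fold higher against the floor (adjusted p = 0.000348).

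Chains that assemble in the same trimer can be set against each other within a library on the TPM scale. Col3a1 and Col1a1, whose chains belong to different trimers, were set against each other as well. The ratio of Col1a1 to Col1a2 was 0.508 and 0.480 in WT on day 0 and 5.79, 6.78 and 5.59 on day 6. In the KO-labelled libraries it was 0.0349, 0.0377 and 0.0332 on day 0 and 0.805, 0.845 and 0.849 on day 6. The group means, 0.494, 1.30, 3.80 and 6.05 in WT on days 0, 1, 3 and 6 against 0.0353, 0.0789, 0.364 and 0.833, were higher at each later time in both genotypes without the genotypes meeting. On day 6 the mean of the KO-labelled libraries lay between the day 0 and day 1 means of WT. Col4a1 to Col4a2 was 1.04 in WT on day 0 and 0.781 on day 6, against 1.39 and 1.07 in the KO-labelled libraries. Col6a3 to Col6a1 was 0.311 and 0.155 in WT on days 0 and 6 against 0.233 and 0.107, and Col6a1 to Col6a2 was 2.11 and 1.65 against 2.69 and 1.89. Col5a1 to Col5a2 was 0.921 and 1.21 in WT on days 0 and 6 against 0.810 and 0.962. On day 1 its means were 0.801 in WT and 0.775 in the KO-labelled libraries, the lowest of which held 0.583. Type III to type I, as Col3a1 to Col1a1, was 2.56 and 1.23 in WT against 33.0 and 4.19.

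An exact two-sided permutation test of each ratio between genotypes gave p = 0.1, the smallest that groups of this size allow, in 23 of 24 tests (6 ratios, 4 days), with adjusted p = 0.104. The exception was Col5a1 to Col5a2 on day 1 (exact permutation p = 1), where the genotypes overlapped. These tests cannot reach 0.05. Leaving out WT replicate 1 moved the day 0 difference in Col4a1 to Col4a2 from 0.42 to 0.51 on the log2 scale. The pairs Col4a5 with Col4a6 and Col8a1 with Col8a2 were left out because a chain fell under 1 TPM in some library. The lowest values were 0.64 TPM for Col4a5, 0.01 for Col4a6 and 0 for Col8a2. Col4a3 with Col4a4 and Col9a1 with Col9a2 were left out by the same rule.

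**Figure D4:**
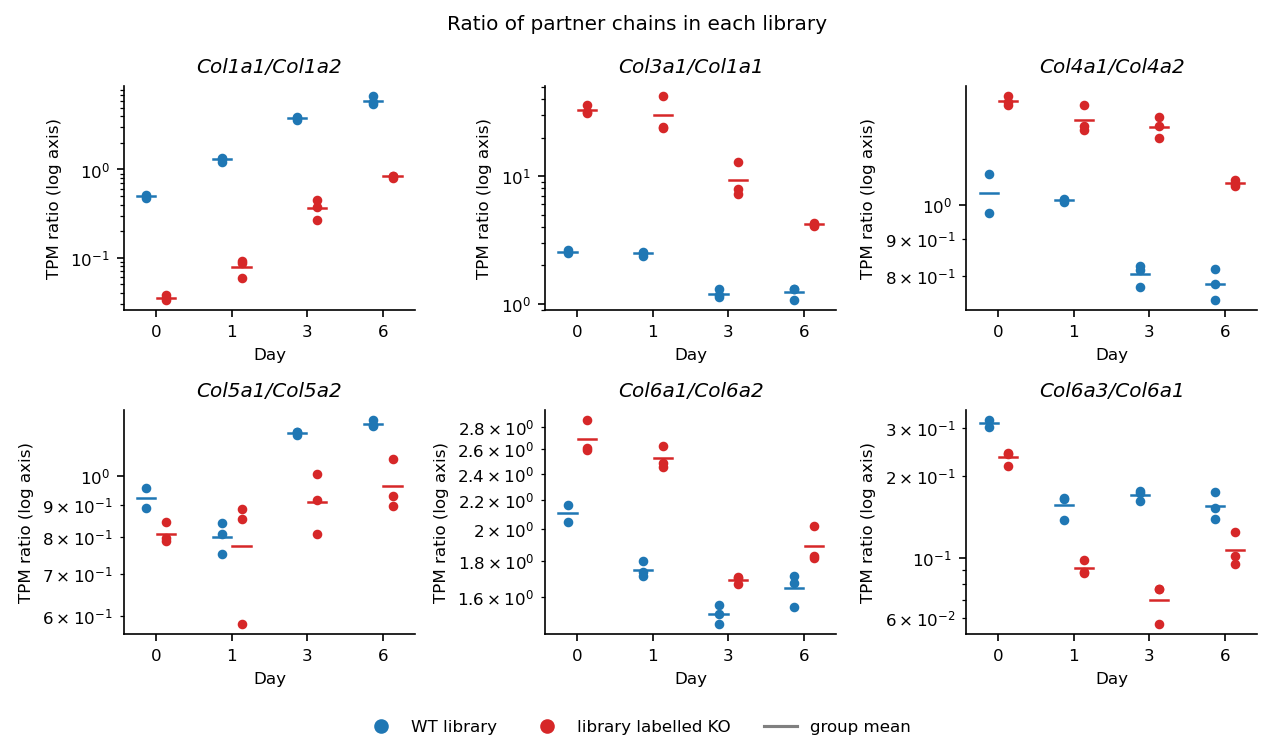
TPM ratio of partner chains, and of Col3a1 over Col1a1, in each library by day (vertical axes, log scale). Points are libraries and lines are group means. Col1a1 over Col1a2 runs from 0.0332 to 0.849 in the KO-labelled libraries and from 0.480 to 6.78 in WT, while Col5a1 over Col5a2 overlaps on day 1.

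Most collagen genes were higher in differentiation medium than on day 0 in both genotypes, where the change of serum, time in culture and differentiation cannot be told apart. In WT, 19 of 32 tested members were higher and 2 lower on day 1 than on day 0 (27.1% and 27.6% of all genes by edgeR), 22 and 3 on day 3 (29.2% and 29%), and 24 and 3 on day 6 (32.6% and 31.1%). In the KO-labelled libraries, 17 were higher and 1 lower on day 1 (27.2% and 25.2% of all genes), 19 and 2 on day 3 (30.4% and 27.2%), and 24 and 5 on day 6 (36.6% and 33.5%). By day 6 the median log2FC of the fibrillar genes was 1.89 in WT and 2.09 in the KO-labelled libraries, that of the basement membrane genes 0.80 and 0.17, and that of the other genes 1.81 and 2.21 (1.62 and 1.75 with genes at their bounds). Over all genes tested it was 0.05 in both.

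Among fibrillar genes, Col1a1 rose most from day 0 to day 6, by a log2FC of 3.99 in WT (adjusted p = 1.11e-12, SE 0.24) and 5.67 in the KO-labelled libraries (adjusted p = 2.49e-16, SE 0.22). Col27a1 rose by 3.11 (adjusted p = 8.97e-12) and 3.03 (adjusted p = 7.34e-14), Col3a1 by 2.91 and 2.69, and Col5a3 by 3.01 and 2.15. Col1a2 rose much less, by 0.37 (adjusted p = 0.000674) and 1.11 (adjusted p = 9.49e-12). Of the type VI genes Col6a2 rose by 2.85 and 3.29, Col6a1 by 2.49 and 2.79, and Col6a3 by 1.51 and 1.68, each at an adjusted p of 2.61e-07 or less. Col2a1, a cartilage fibril chain, was called lower on day 3 in WT (at least 2.79-fold against the floor, adjusted p = 0.0258) and day 6 in the KO-labelled libraries (at least 2.69-fold, or 1.78-fold without day 0 replicate 1, adjusted p = 0.0386), on counts of at most 13, and both calls were lost when single libraries were left out (adjusted p up to 0.156 and 0.196).

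The basement membrane genes moved in several directions. Col4a6, at 1 to 44 counts, rose most by day 6, by 2.15 in WT (adjusted p = 0.0116, but up to 0.141 when single libraries were left out) and 3.66 in the KO-labelled libraries (adjusted p = 7.28e-06). Col18a1 rose on day 1 (log2FC 0.95 in WT, adjusted p = 2.17e-08, and 0.85 in the KO-labelled libraries, adjusted p = 1.82e-08) and fell below its starting level by day 6 (-0.51, adjusted p = 6.15e-05, and -0.39, adjusted p = 0.000314). Col4a1 rose by 0.42 in WT by day 6 (adjusted p = 0.000154) and was called lower in the KO-labelled libraries (-0.20, adjusted p = 0.017), a call lost with library size as the only scaling (adjusted p = 0.105) and on the TPM scales (adjusted p up to 0.394). Its day 1 call in WT (-0.25, adjusted p = 0.0145) was lost in the same ways (adjusted p = 0.0627 and up to 0.348). Col4a2 rose by 0.83 in WT (adjusted p = 1.49e-07) and had a value of 0.17 in the KO-labelled libraries (adjusted p = 0.0755), which passed under 7 of the alternatives (adjusted p down to 0.0114 with library size only). Col4a5 rose in both, by 0.80 (adjusted p = 0.0012) and 2.44 (adjusted p = 5.11e-12). Col7a1 fell in both, with values of -1.42 (adjusted p = 2.68e-08) and -1.17 (adjusted p = 1.23e-08), and the scarce Col10a1 was called lower on days 1, 3 and 6 in both, with some of these calls lost when single libraries were left out or on the TPM scale (adjusted p up to 0.125).

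**Figure D5:**
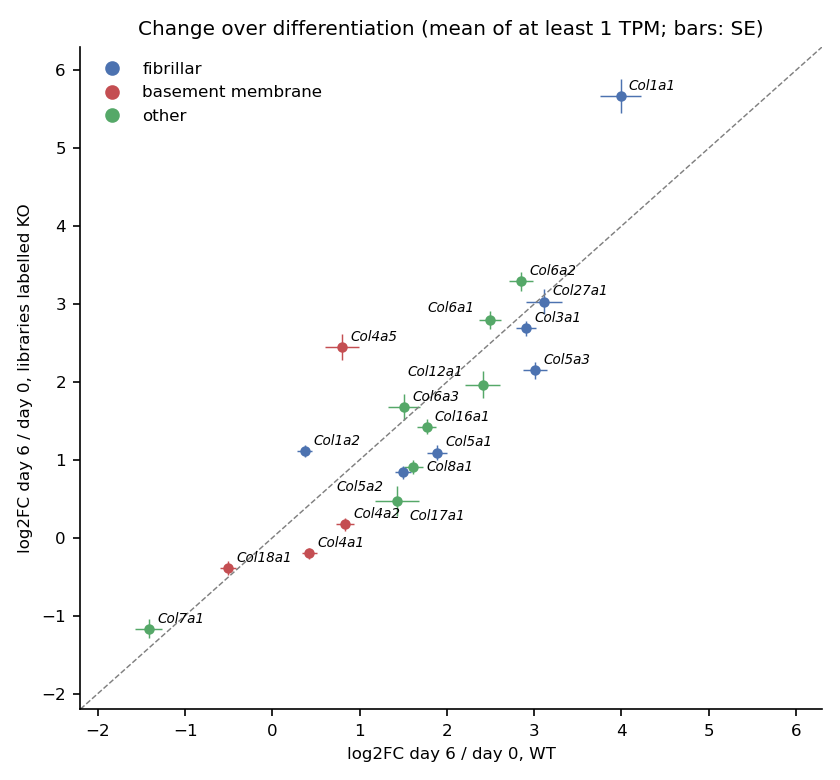
Fitted log2FC of day 6 over day 0 in WT (horizontal axis) and in the KO-labelled libraries (vertical axis) for the 19 tested members with a mean of at least 1 TPM, with SE bars and a dashed line of equality. Col1a1 (3.99 and 5.67) and Col4a5 (0.80 and 2.44) lie above the line and Col5a3 (3.01 and 2.15) below it.

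Whether the time course differed between genotypes was tested by the interaction. It was called for 2 members on day 1 (3.95% of all genes), Col1a2 upward and Col16a1 downward relative to WT, a count of 0 to 2 as single libraries were left out and of 1 upward and 0 downward on the TPM scale. It was called for 9 on day 3, 1 upward and 8 downward (10.7% of all genes), and for 10 on day 6, 3 upward and 7 downward (13% of all genes), or 6 upward and 7 downward in limma on log2(TPM + 1). The 3 upward on day 6 were Col1a1, Col1a2 and Col4a5. Col5a1, Col5a2, Col5a3, Col4a1, Col4a2 and Col8a1 were called downward on both day 3 and day 6.

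The machinery that makes and assembles collagen was read from lists of genes that are not themselves collagens. Over all genes, 7.36% were higher and 10.1% lower in the KO-labelled libraries on day 0, 22.9% and 19.2% on day 1, 24% and 19.2% on day 3, and 22% and 20.8% on day 6. Of 19 tested genes for chain modification and folding, 1 was higher and 6 lower on day 0, 2 and 11 on day 1, 2 and 11 on day 3, and 2 and 9 on day 6 (day 6 median log2FC -0.27). Plod1, a lysyl hydroxylase, stood at 289.6, 287.6 and 303 TPM in WT on day 6 against 154, 139 and 139 (log2FC -0.90, adjusted p = 3.09e-08), and P4ha2, a prolyl 4-hydroxylase subunit, had -0.69 (adjusted p = 0.000104). Those higher were P3h2, a prolyl 3-hydroxylase that acts on type IV chains (0.72, adjusted p = 0.0223), and the chaperone gene Hspa5 (0.36, adjusted p = 0.00737). Of 10 secretion genes 0 were higher and 2 lower on day 0, 1 and 2 on day 1, 0 and 5 on day 3, and 0 and 4 on day 6, those lower on day 6 being led by the coat component Sec24d (-0.66, adjusted p = 6.06e-08) and Mia3, which loads procollagen into carriers (-0.32, adjusted p = 0.00196). Of 14 processing and cross-linking genes 3 were higher and 5 lower on day 0, 2 and 8 on day 1, 0 and 8 on day 3, and 0 and 7 on day 6. The lysyl oxidase relative Loxl3 had a day 6 log2FC of -1.31 (adjusted p = 6.09e-11), and Adamts3, a procollagen N-proteinase, had 47 to 75 counts in WT and 0 in each KO-labelled library on day 6, at least 19.4-fold lower against the floor (adjusted p = 2.22e-08).

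Of 12 genes that regulate fibrils, 3 were higher and 3 lower on day 0, 2 and 7 on day 1, 2 and 8 on day 3, and 2 and 9 on day 6 (median -1.01; 22% and 20.8% of all genes on day 6). Named for day 6 are the proteoglycan genes Dcn higher (0.74, adjusted p = 0.000319) and Prelp lower (-2.15, adjusted p = 1.65e-11), Postn higher (0.66, adjusted p = 6.23e-05) and Dpt lower (-2.28, adjusted p = 0.00017). Of 8 collagen receptor genes 0 were higher and 2 lower on day 0, 0 and 5 on days 1 and 3, and 1 and 4 on day 6 (median -0.50). Itga11 and Itga1, the integrin α11 and α1 subunits, had -1.35 (adjusted p = 7.09e-07) and -2.48 (adjusted p = 0.000745), and Itga2, with 0 to 2 counts in WT, was at least 5.85-fold higher on 11 to 23 counts (adjusted p = 0.000344). Of 6 partners of the basement membrane 1 was higher and 2 lower on day 0, 1 and 3 on day 1, 1 and 4 on day 3, and 2 and 3 on day 6 (median -0.64). Nid2, whose protein links type IV collagen to laminin, had -1.78 (adjusted p = 1.08e-12) and Smoc1 -2.92 (adjusted p = 1.73e-10), while Agrn, the agrin gene, had 1.33 (adjusted p = 3.54e-10) and Smoc2 0.46 (adjusted p = 0.00241).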

How the data were processed

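Poly(A) RNA was measured in 23 libraries. The authors deposited a table of estimated counts per gene symbol, as whole numbers, and a table of TPM for the same genes; the submitters' processing notes name Bowtie2, RSEM and mm10, with no role, version or use of strand. Counts, already whole so that rounding changed none, were tested in edgeR 4.0.16 (R 4.3.3) with TMM scaling, filterByExpr (minimum count 10, total 15), a quasi-likelihood fit of group means over all 23 libraries, 13 contrasts and Benjamini-Hochberg adjustment over 14187 genes within each, at 0.05. The SE was derived from the F statistic. TPM served for levels, shares and ratios. A floor of 3 counts per library bounds folds against groups at or below it, and covers counting error only.

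The members, classes and lists were chosen with earlier results of these data known. Values of every library are given for the main chains of types I, III, IV, V and VI, and for the 2 highest and 2 lowest log2FC per genotype contrast and per day 6 contrast among called members with a mean of at least 5 CPM and no overlap; the other members and the per-library values given for them were chosen after their values were seen. From each list of other genes, the 2 most changed in each direction on day 6 are named. The fit was tested on simulated data. Equal replicate numbers, which the labels give without saying that they share a culture, did not pair libraries: the mean correlation of their deviations was 0.049, 0.003, 0.017 and -0.094 on days 0, 1, 3 and 6. Alternatives were RLE or library size scaling, no filter or a mean count of 50, DESeq2 1.42.0, limma 3.58.1 on log2(TPM + 1) and log2(TPM + 0.1), only the groups compared, the replicate block, stricter thresholds and omission of each library. Omission of each library for shares, ratios and bounds, the alternatives for the uncalled day 6 value of Col4a2, and the class counts under each alternative were added after seeing the data. Promoter sequences and gene positions are RefSeq's for GRCm38.p6, with exons and strands from GENCODE.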

Additional observations from a re-analysis of the deposited data

Results flagged for a closer look

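The time course of 12 collagen genes differed between genotypes by edgeR's interaction term, which compares the change since day 0 in the KO-labelled libraries with that in WT; a positive value means a larger rise or a smaller fall in the KO-labelled libraries. On day 1 this held for Col1a2 (log2 difference 0.51, adjusted p = 0.0114) and Col16a1 (-0.52, adjusted p = 0.045). The first was lost when either day 0 WT library was left out (adjusted p = 0.0507 and 0.0504), and the other in several settings and without any of 7 single libraries (adjusted p up to 0.339).

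On day 3 the interaction of the fibrillar genes Col5a3 (-1.61, adjusted p = 6.84e-07), Col5a1 (-1.08, adjusted p = 1.67e-05) and Col5a2 (-0.91, adjusted p = 1.53e-05) was negative, all type V chains that rose less in the KO-labelled libraries. The type IV genes Col4a1 (-0.51, adjusted p = 0.00348) and Col4a2 (-0.75, adjusted p = 0.000345) had a negative value too, and Col4a5 a positive one (1.24, adjusted p = 0.00216). Col8a1 (-0.80, adjusted p = 0.000309), Col16a1 (-0.72, adjusted p = 0.0017) and Col12a1 (-0.84, adjusted p = 0.0321) were also negative. The call of Col12a1 was lost without single libraries (adjusted p up to 0.165), and that of Col16a1 on the TPM scales (adjusted p = 0.127 and 0.151).

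On day 6 the interaction was positive for the type I genes Col1a1 (1.68, adjusted p = 0.000115) and Col1a2 (0.74, adjusted p = 6.74e-05) and for Col4a5 (1.65, adjusted p = 8.22e-05). Col1a1 rose more from day 0 in the KO-labelled libraries, where its day 6 level was still 6.97-fold lower than in WT. The interaction was negative for Col5a3 (-0.86, adjusted p = 0.000734), Col5a1 (-0.80, adjusted p = 0.000396), Col5a2 (-0.66, adjusted p = 0.000461) and Col8a1 (-0.71, adjusted p = 0.000833). It was also negative for Col4a1 (-0.62, adjusted p = 0.00039) and Col4a2 (-0.66, adjusted p = 0.000991), whose day 6 levels were 6.40-fold and 4.65-fold higher than in WT. Col17a1 had -0.96 (adjusted p = 0.0496), a call kept in only 6 of 20 alternatives. Among its losses were those with the replicate block (adjusted p = 0.0716), without either day 0 WT library (0.245 and 0.0869) and on the TPM scales (0.198 and 0.0865).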

How the results depend on the processing

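The 246 calls of members over all contrasts were recomputed under the alternatives, giving 3646 values: 3465 kept direction and call, 181 kept direction without the call, 0 reversed, and 202 calls held throughout. The causes were not tested. An absolute log2FC of at least 1 left 10, 9 and 14 members between genotypes on days 0, 1 and 3, 12 and 11 on day 1 against day 0 in WT and the KO-labelled libraries, and 0, 3 and 2 interactions on days 1, 3 and 6. A mean count of at least 50, which tests fewer genes, left 15 on day 6 between genotypes and 18 on day 6 against day 0 in the KO-labelled libraries. The day 1 interaction count was 1 with library size only, on both TPM scales and with only the groups compared, 0 at an adjusted p under 0.01, and 0 to 2 without single libraries. The alternatives were also run for 11 values without a call, of which 7 passed in some alternative and 2 changed sign: Col4a5 on day 0 (-0.0585 with library size only, -0.0004 with a mean count of 50, -0.0511 and -0.12 on the log2(TPM + 1) and log2(TPM + 0.1) scales, and -0.22 to 0.21 without single libraries) and Col1a2 on day 6 (-0.0031 with library size, -0.0584 and -0.0586 on the TPM scales, and -0.011 without WT replicate 1). On the log2(TPM + 1) scale the median of all genes moved by 0.12 on day 3 between genotypes. As a share of counts the collagens made up 0.435%, 1.12%, 2.08% and 2.30% in WT and 0.370%, 0.763%, 0.881% and 1.06% in the KO-labelled libraries on days 0, 1, 3 and 6. Without Col1a1, Col1a2 and Col3a1 their TPM shares were 0.0597%, 0.144%, 0.226% and 0.224%, and 0.0698%, 0.124%, 0.128% and 0.141%. The log2 difference in Col4a1 to Col4a2 on day 0 ran from 0.33 to 0.51 without single libraries. With the replicate block, which does not reflect a known pairing, 16, 19, 24 and 23 members were called between genotypes on days 0, 1, 3 and 6. It ended 4 calls in all, of Col5a1 (day 0), Col8a1 (day 6), Col24a1 (day 1 against day 0, labelled KO, adjusted p = 0.0569) and Col17a1 (day 6 interaction), and changed no other call. On the numbers, 2, 1, 1 and 0 WT libraries correlated best with their own number on days 0, 1, 3 and 6. Members under about 50 counts per library could be compared only coarsely.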
